A study of Mus musculus with 36 samples.

Results

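The right lungs that remained 1 day after left pneumonectomy (PNX, surgical removal of the left lung) were compared between middle-aged and young adult mice. Arrays were chosen by their labels alone: 3 arrays of 9 month right lungs at day 1 post PNX and 3 arrays of 3 month right lungs at day 1 post PNX, 6 of the 36 arrays of the series. All mice were female C57BL6, and RNA from a pair of mice was pooled for each array, so that 1 array stands for 1 pool. The 9 month pools are numbered 4, 5 and 6 and the 3 month pools 1, 2 and 3. The left lung of the same mice, taken at the operation on day 0, gave 6 further arrays, and right lungs of other pools were taken on days 3 and 7. Both ages underwent PNX, and no sham-operated lungs were on arrays, so the comparison is one of age within operated lungs. The question was how the remaining lung of a 9 month mouse differed from that of a 3 month mouse at the start of compensatory growth.

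After PNX the remaining lung receives the whole of the cardiac output and is stretched as it fills the emptied side of the chest. In rodents it then grows by proliferation of epithelial, endothelial and stromal cells, with early changes in vascular genes, in inflammatory cells and in the extracellular matrix. Whole lung RNA holds all of these cells together, so that fewer cells of a type and less RNA per cell cannot be told apart.

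Levels are log2 normalized bead intensities, in which a difference of 1 is a 2-fold change. A probe was called when its adjusted p in limma's moderated test was under 0.05 and its difference at least 1.5-fold. Of 45281 probes, 15795 (11835 gene symbols) were detected on all 36 arrays and were tested. The 6 arrays detected 44.5% to 46.7% of probes in the 9 month pools and 45.1% to 47.0% in the 3 month pools. The 75th percentile of the raw signal was 309 to 339 in the 9 month arrays and 393 to 515 in the 3 month arrays, without overlap, before normalization. The arrays lay on 1 chip with the 9 month pools at its last positions (D, E and F) and the 3 month pools at its first (A, B and C), so age and position cannot be told apart. The p-values measure the spread between pools of mice. Defining markers of lung were present: 10 of 10 type II cell genes and 8 of 8 type I cell genes on the array were tested, and none of them was called.

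At day 1, 480 probes were called between the ages. Of these, 267 were higher in 9 month lungs (1.69% of the probes tested) and 213 were lower (1.35%), and the median difference over all probes was -0.0034. At least 2-fold differences were seen in 89 probes that were higher and 54 that were lower. By the brightest probe of each gene, 211 genes were higher and 164 lower. All 480 called probes had no overlap between the ages, a pattern that 13.0% of all tested probes showed upward and 14.5% downward. The 9 month pool 5 was the pool farthest from the 3 month lungs for 198 of the 267 higher probes and 148 of the 213 lower ones.

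The number of calls depended on which pool was left out. Without 9 month pool 5, 124 probes were called, and without 3 month pools 1, 2 or 3 the number was 251, 210 or 258. Without 9 month pool 4 it was 607 and without 9 month pool 6 it was 377. There were 99 probes called whichever pool was left out, 56 of them higher and 43 lower. Where a gene below is said to keep its call, it did so in all 6 of these fits.

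**Figure D1:**
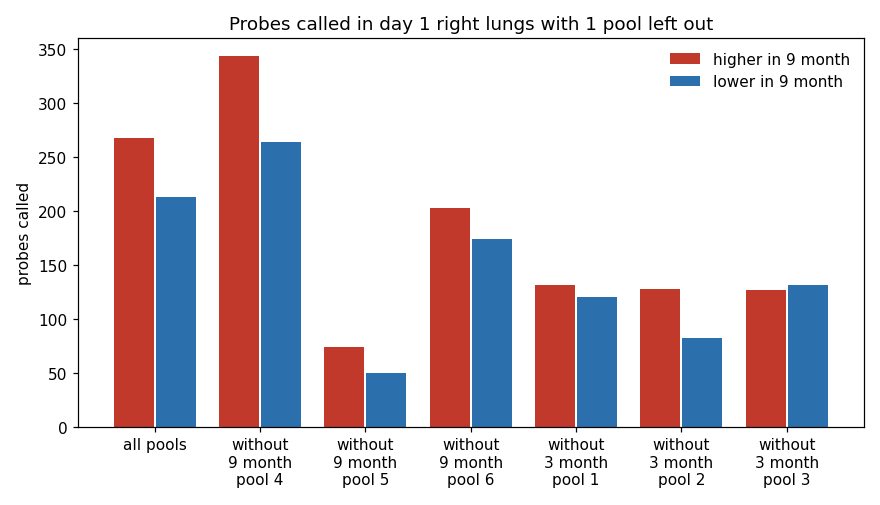
Number of probes called higher (red) or lower (blue) in 9 month than in 3 month day 1 right lungs, with all 6 pools and with each pool left out in turn. The count falls to 124 without 9 month pool 5 and rises to 607 without 9 month pool 4.

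Immunoglobulin transcripts were among the largest differences. Immunoglobulins are made by plasma cells, the end stage of the B cell lineage. Igh-6 (now Ighm, the IgM heavy chain gene) had log2 levels of 15.16, 14.61 and 14.80 in 9 month pools 4 to 6, against 11.45, 12.16 and 13.30 in 3 month pools 1 to 3. All 9 month pools lay above all 3 month pools, and the 3 month pools were spread more widely than the 9 month pools. The difference was 2.55 ± 0.44 (SE), or 5.87-fold, with a limma adjusted p of 0.0060. The kappa constant region, Igk-C (now Igkc), was at 15.72, 15.46 and 15.64 in 9 month pools and 13.53, 14.32 and 14.90 in 3 month pools, a difference of 1.36 ± 0.29 (adjusted p = 0.018). The heavy chain variable segment Igh-VJ558 was higher by 1.88 ± 0.36 and the kappa variable segment Igk-V38 by 2.26 ± 0.43 (adjusted p of 0.010 for both). The gene 2010001M09Rik (now Mzb1), which encodes a chaperone of immunoglobulin assembly in the endoplasmic reticulum, stood at 10.98, 10.27 and 10.61 in 9 month pools and 8.60, 9.09 and 9.30 in 3 month pools (1.63 ± 0.27, adjusted p = 0.0045).

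Of the 5 tested plasma cell and immunoglobulin genes, 4 were higher, none was lower and the median difference was 1.63. Their summed level was 85130 to 112900 in 9 month pools and 19260 to 48090 in 3 month pools. The joining chain gene Igj was detected on 0 of the 6 arrays and Tnfrsf17, a plasma cell receptor, on 1, so neither was tested. Igh-6, Igh-VJ558, Igk-V38 and 2010001M09Rik kept their calls, whereas Igk-C lost its call without pools 1, 2 or 5. Probes for rearranged and closely related immunoglobulin segments can bind transcripts of several of them, so single segments are uncertain. Of 6 tested B cell genes none was called, all 6 lay below 0, and the median was -0.44. For example, Cd79b, a signalling chain of the B cell receptor, differed by -0.62 (adjusted p = 0.17). The left lungs, removed at surgery, differed as well. In left lungs Igh-6 was higher by 2.51 (adjusted p = 7.2e-05) and Igk-C by 1.48 (adjusted p = 4.0e-05), and the right minus left change differed between the ages by 0.05 for Igh-6 and -0.12 for Igk-C (adjusted p of 0.98 and 0.92). On days 3 and 7 the difference for Igh-6 was 1.92 and 1.82 (adjusted p of 0.035 and 0.18), and that for Igh-VJ558 was 3.62 and 3.61 (adjusted p of 5.4e-05 and 0.00016).

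Some platelet genes were higher. Platelets carry RNA from their megakaryocyte parents, and megakaryocytes are also found in mouse lung. Gp5, a subunit of the platelet receptor for von Willebrand factor, was at 10.12, 9.33 and 9.86 in 9 month pools and 8.16, 8.85 and 7.86 in 3 month pools, 2.79-fold higher (difference 1.48 ± 0.35, adjusted p = 0.027). Alox12, the platelet lipoxygenase, was 2.56-fold higher (1.36 ± 0.34, adjusted p = 0.036). The ages did not overlap for either gene. Of 5 tested genes on the platelet list 1 (Gp5) was called, all 5 lay above 0 and the median was 1.10. The other 4 were not called: Ppbp (1.11, adjusted p = 0.14), Itga2b (1.09, adjusted p = 0.15), Treml1 (1.06, adjusted p = 0.11) and Gp9 (1.09, adjusted p = 0.19). Both Gp5 and Alox12 were also higher in 9 month left lungs, by 1.20 (adjusted p = 0.0025) and 1.22 (adjusted p = 0.0010). In those lungs all 5 tested genes of the platelet list were called higher, with a median of 1.20. On day 3 the differences were -0.21 for Gp5 and -0.28 for Alox12. The call of Gp5 was lost without any pool but pool 2, and that of Alox12 without any 1 of the 6 pools. The summed level of the platelet genes was 5720 to 9668 in 9 month pools and 3016 to 4946 in 3 month pools, and the part of blood content in these values was not tested.

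A second group of genes was higher in 9 month right lungs and was not called in the left lungs of the same mice. Plat, the tissue plasminogen activator that endothelial cells release to dissolve fibrin, had levels of 12.79, 13.82 and 12.92 in 9 month pools and 11.47, 10.94 and 11.36 in 3 month pools. It was 3.79-fold higher (1.92 ± 0.28, adjusted p = 0.0019), with pool 5 the highest. In left lungs the difference for Plat was -0.10 (adjusted p = 0.84), and the difference of the right minus left change, 2.02 ± 0.33, passed the test (adjusted p = 0.024). Sema7a, a membrane-anchored semaphorin that acts on integrins and plexins, was at 12.37, 12.57 and 12.20 in 9 month pools and 10.96, 10.62 and 10.68 in 3 month pools (1.63 ± 0.24, adjusted p = 0.0020). Plxna2, a plexin receptor of class 3 and class 6 semaphorins, was at 10.88, 11.76 and 11.05 in 9 month pools and 9.92, 9.94 and 9.62 in 3 month pools (1.40 ± 0.19, adjusted p = 0.0010). Cdkn1a, the p21 inhibitor of cyclin-dependent kinases, was at 12.39, 13.26 and 12.31 in 9 month pools and 11.45, 11.12 and 11.46 in 3 month pools (1.31 ± 0.24, adjusted p = 0.0075). Plat, Sema7a, Plxna2 and Cdkn1a kept their calls.

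Of 12 general endothelial markers tested, none was higher, 2 were lower and the median was 0.0021, with Cldn5, a tight junction protein, at 0.30 (adjusted p = 0.10). Their summed level was 87230 to 94660 in 9 month pools and 87430 to 95390 in 3 month pools. Outside that list, 3 called genes that endothelial cells express, Cd93, Mcam and Lyve1, were picked after their values were seen. Cd93, a glycoprotein of endothelial and myeloid cells, was at 14.54, 14.58 and 14.55 in 9 month pools and 13.73, 13.59 and 13.67 in 3 month pools, with little spread within either age (0.89 ± 0.11, adjusted p = 0.00077). Mcam, an adhesion molecule of endothelial junctions, was higher by 0.81 ± 0.15 (adjusted p = 0.0076), and Lyve1, the hyaluronan receptor of lymphatic endothelium, by 1.03 ± 0.20 (adjusted p = 0.010). Nos3, the endothelial nitric oxide synthase, was 2.55-fold higher (1.35 ± 0.26, adjusted p = 0.010), but only 1 of its 2 other probes was called, and it lost its call without pool 5 (adjusted p = 0.055). Tinagl (now Tinagl1), a secreted matrix protein of vessels, was higher by 1.60 ± 0.32 (adjusted p = 0.013) and Map3k6, a stress-activated kinase, by 1.60 ± 0.29 (adjusted p = 0.0081). On the probes given here Tinagl lost its call without pools 2 or 5 and Map3k6 without pool 5, while the other probe of each gene kept its call. Cd93, Mcam and Lyve1 kept theirs.

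The 2 endothelial markers that were lower are both receptors of vasoactive peptides. Agtrl1 (now Aplnr, the apelin receptor) gave the largest drop among genes with usual names: 6.70, 6.17 and 7.39 in 9 month pools against 8.76, 9.07 and 8.68 in 3 month pools. It was 4.23-fold lower (-2.08 ± 0.28, adjusted p = 0.0010). Ednrb, the type B endothelin receptor, was at 11.48, 10.98 and 11.20 in 9 month pools and 12.51, 12.75 and 12.30 in 3 month pools (-1.30 ± 0.16, adjusted p = 0.00077). The ages did not overlap for either gene, and both kept their calls. In left lungs Agtrl1 was lower too (-1.33, adjusted p = 0.00043), while Ednrb was not called (-0.23, adjusted p = 0.32) and its right minus left change differed by -1.06 ± 0.20 (adjusted p = 0.029). For Agtrl1 that difference was -0.75 (adjusted p = 0.34). Angpt2, a ligand of the Tie2 receptor, fell by 0.59 (adjusted p = 0.038) and lost its call whichever pool was left out. Hey1, a Notch target of arterial endothelium, fell by 0.75 (adjusted p = 0.010) and lost its call without pool 5.

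**Figure D2:**
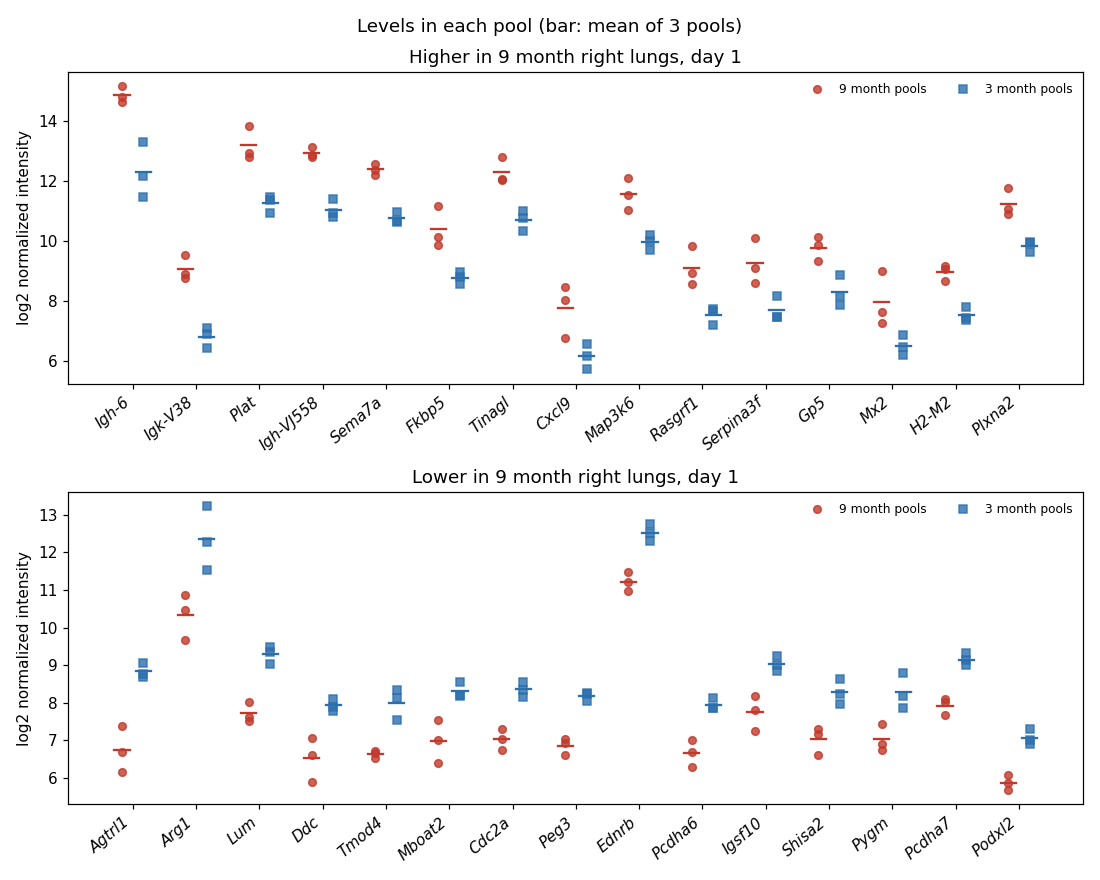
Log2 normalized intensity in each pool for the 15 genes in each direction with the largest differences among called genes without overlap, predicted, clone and RIKEN names skipped, with 9 month pools as red circles left of 3 month pools as blue squares and a bar at each mean. The absence of overlap was part of how the genes were chosen, and 9 month pool 5 is the highest for Plat at 13.82 and the lowest for Agtrl1 at 6.17.

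Genes of stress and steroid responses were higher in part. Fkbp5, a co-chaperone of steroid receptors and a standard glucocorticoid target, was at 10.13, 11.17 and 9.87 in 9 month pools and 8.97, 8.78 and 8.57 in 3 month pools, 3.06-fold higher (1.61 ± 0.35, adjusted p = 0.017). Sgk1, a kinase induced by steroids and osmotic stress, was at 13.70, 13.83 and 13.51 in 9 month pools and 12.94, 12.78 and 12.95 in 3 month pools (0.79 ± 0.15, adjusted p = 0.0082). Of 14 tested glucocorticoid targets, 2 were higher, none was lower, 13 lay above 0 and the median was 0.37. Without pool 5 neither was called, and the median was 0.22. Fkbp5 also lost its call without pools 2 or 3. Of 16 immediate early genes only Klf4, a transcription factor, was called (0.71, adjusted p = 0.037), 15 of 16 lay above 0 and the median was 0.32. Gadd45g, a growth arrest gene, was 2.08-fold higher (adjusted p = 0.033), and with Cdkn1a it made up the 2 of 16 p53 targets that were called, with a list median of 0.10. Klf4 lost its call without any pool but pool 4, and Gadd45g without pools 1, 2, 3 or 5.

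Growth factor genes went both ways, with 2 higher and 3 lower of 23 tested. Hbegf, a ligand of the EGF receptor, was at 11.59, 12.23 and 11.76 in 9 month pools and 11.24, 10.60 and 10.93 in 3 month pools (0.93 ± 0.23, adjusted p = 0.030). Vegfc, the lymphatic growth factor, was higher by 0.63 (adjusted p = 0.027). Lower were Igf1 (-0.62, adjusted p = 0.031), which supports cell growth, the heparin-binding growth factor Mdk (-0.70, adjusted p = 0.025) and Angpt2. Each of these 5 lost its call in at least 4 of the 6 fits with a pool left out. Spry4, which dampens receptor tyrosine kinase signals, was higher by 1.19 (adjusted p = 0.017). Epha2, an ephrin receptor, was higher by 0.93 (adjusted p = 0.036) and with Sema7a and Plxna2 made up the 3 higher of 19 semaphorin, plexin and ephrin genes, whose median was -0.04. Ctgf (now Ccn2) and Ankrd1, both commonly used as readouts of stretch-sensitive Yap signalling, were higher by 1.01 ± 0.23 (adjusted p = 0.022) and 1.27 ± 0.21 (adjusted p = 0.0050). Ankrd1 was at 12.93, 13.33 and 12.69 in 9 month pools and 11.56, 11.51 and 12.07 in 3 month pools and kept its call, but it was also higher by 0.55 in the left lungs of the 9 month pools (adjusted p = 0.049), short of 1.5-fold. Rasgrf1, an exchange factor that activates Ras, was 2.96-fold higher (adjusted p = 0.017), and Pvr, an adhesion molecule and ligand of lymphocyte receptors, 2.48-fold (adjusted p = 0.017). Calls were lost without pools 1, 2, 5 or 6 for Spry4, 1, 2, 3 or 5 for Epha2 and Pvr, 1, 2 or 5 for Ctgf, and 2 or 5 for Rasgrf1.

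Some cell division genes were lower in 9 month right lungs. The mitosis list holds kinases, spindle and chromosome proteins made when cells divide, and of its 11 tested members 5 were lower, none was higher, all 11 lay below 0 and the median was -0.76. Cdc2a (now Cdk1, the kinase that drives entry into mitosis) was at 7.31, 7.03 and 6.74 in 9 month pools and 8.56, 8.16 and 8.35 in 3 month pools, 2.51-fold lower (-1.33 ± 0.19, adjusted p = 0.0019). Top2a, the topoisomerase that untangles replicated DNA, was at 7.47, 6.85 and 7.07 in 9 month pools and 8.45, 8.15 and 8.40 in 3 month pools (-1.20 ± 0.28, adjusted p = 0.026). Birc5, the survivin gene, was at 7.75, 7.39 and 7.49 in 9 month pools and 8.87, 8.41 and 8.36 in 3 month pools (-1.001 ± 0.19, adjusted p = 0.010). Prc1, which bundles spindle microtubules, fell by 0.84 (adjusted p = 0.023) and Mki67, the Ki67 antigen of cycling cells, by 0.76 (adjusted p = 0.039). The ages did not overlap for any of these 5 genes. The other probe of Birc5 lay in the same direction and was not called. Cdc2a kept its call, while without pool 5 it was the sole member of the list still called, and the median of the list was then -0.67. Without pool 1 or pool 2, 2 members stayed called, and without pool 3 or pool 6, 3 members.

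DNA replication genes lay lower by less: of 20 tested, 19 were below 0, 1 was called (Tk1, thymidine kinase, -0.99 ± 0.22, adjusted p = 0.021) and the median was -0.35. Of 35 genes with replication-dependent histone symbols, 9 were called and all 9 were lower, from -0.62 to -1.18. All 9 were histone H2A genes, of which 12 were tested. The 23 genes of the other histone classes gave no call and a median of -0.17. Histone H2A genes are near-identical copies, their probes can bind several of them, and this family was picked after its values were seen. In left lungs the median of the mitosis list was -0.31 and none of its members was called, and in right lungs it was 0.20 on day 3 and -0.09 on day 7. For Cdc2a the left difference was -0.68 (adjusted p = 0.32), and its right minus left change differed between the ages by -0.65 (adjusted p = 0.43). None of the called mitosis genes was called for that change. Among inhibitors of G1 cyclin kinases, Cdkn1a was higher and Cdkn2c lower (-0.65, adjusted p = 0.018). Tk1 lost its call without pools 1, 2, 3 or 5, and Cdkn2c without pools 2, 3, 5 or 6.

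The promoters of the mitosis genes are shown because many genes of this phase share 2 short elements, a CCAAT box and a cell cycle homology region. Promoter sequence was taken from RefSeq on GRCm38.p6, and both strands of the 250 bases before each start were searched for CCAAT and for TTTGAA, whose matches can share at most 1 base with each other. CCAAT was found in 15 of the 17 mitosis list genes with an entry (88.2%), against 37.5% of all 27025 genes with an entry. TTTGAA was found in 7 of the 17 (41.2%), against 18.3% of all genes. Of the 10 tested members with an entry, 8 held CCAAT and 4 held TTTGAA. The DNA replication genes held CCAAT in 12 of 21 (57.1%) and TTTGAA in 2 of 21 (9.52%). The 200 bases before the start of 3 genes of the list that were lower follow 5′ to 3′ on the strand of the gene, with matches on either strand in capitals. They lie at chr10:69352913-69353112 (minus strand), chr11:99024190-99024389 (minus strand) and chr7:135716380-135716579 (minus strand).
Cdk1: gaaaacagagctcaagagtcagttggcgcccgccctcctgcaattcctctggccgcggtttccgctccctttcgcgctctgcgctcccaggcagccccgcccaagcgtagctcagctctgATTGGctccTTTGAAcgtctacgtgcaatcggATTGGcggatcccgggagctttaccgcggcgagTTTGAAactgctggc
Top2a: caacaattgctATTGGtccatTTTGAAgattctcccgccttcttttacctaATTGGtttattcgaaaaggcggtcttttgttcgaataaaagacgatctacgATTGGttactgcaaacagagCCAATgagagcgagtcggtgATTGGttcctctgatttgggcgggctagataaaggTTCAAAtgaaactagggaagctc
Mki67: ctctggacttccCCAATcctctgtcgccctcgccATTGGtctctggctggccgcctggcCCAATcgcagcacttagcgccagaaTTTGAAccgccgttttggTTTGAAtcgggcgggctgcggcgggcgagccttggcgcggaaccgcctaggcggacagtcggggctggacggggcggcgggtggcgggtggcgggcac

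These windows held 4 matches for Cdk1, 7 for Top2a and 5 for Mki67, the most among the lower mitosis genes. The same window of Birc5 held 0, and those of the 2 starts of Prc1 held 1 and 2. A match describes the letters of the window only.

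Some fibroblast and matrix genes were lower in 9 month lungs. Lum, the collagen-binding proteoglycan lumican, was at 8.03, 7.61 and 7.53 in 9 month pools and 9.36, 9.49 and 9.03 in 3 month pools, 2.97-fold lower (-1.57 ± 0.18, adjusted p = 0.00056), and kept its call. Col1a1 and Col1a2, the chains of type I collagen, differed by -0.72 ± 0.17 and -0.69 ± 0.18 (adjusted p of 0.025 and 0.039), and Col14a1, a fibril-associated collagen, differed by -0.67 ± 0.13 (adjusted p = 0.010). Of 10 tested interstitial collagens 3 were lower, none was higher, all 10 lay below 0 and the median was -0.20. Of 11 fibroblast markers 2 were lower (Lum and Col1a2), 9 lay below 0 and the median was -0.32. Mmp2, the gelatinase that cleaves basement membrane collagen, fell by 0.81 (adjusted p = 0.014), and Mfap5, a microfibril protein, by 0.80 (adjusted p = 0.0098). In left lungs 7 of the 10 collagens were called lower and none higher, with a median of -0.69. Of the 11 fibroblast markers 2 were called lower there, with a median of -0.38. The left lung differences were -1.67 for Col1a1 (adjusted p = 0.00018) and -0.97 for Col1a2 (adjusted p = 0.0015), and the right minus left change was not called different between the ages (0.96 for Col1a1, adjusted p = 0.13). The type I collagen calls were lost in most fits with a pool left out: Col1a1 lost its call without pools 1, 2, 3, 5 or 6, and Col1a2 without pools 1, 2, 3 or 5. Mfap5 lost its call without pool 5 and Mmp2 without pools 2 or 5. Col14a1 lost its call without pool 6 by the 1.5-fold threshold alone, since its limma adjusted p was at most 0.048 in all 6 fits.

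Of 16 basement membrane genes tested 2 were higher and none lower, 10 lay below 0 and the median was -0.10. Of 15 matrix proteases and inhibitors 2 were higher and 1 (Mmp2) lower, with a median of -0.02. Lama5, the laminin alpha 5 chain, was at 10.30, 10.91 and 10.60 in 9 month pools and 9.82, 9.88 and 9.71 in 3 month pools (0.80 ± 0.15, adjusted p = 0.0079), and kept its call. Col18a1, the source of endostatin, was higher by 0.88 ± 0.18 (adjusted p = 0.015), although its other probe was not called. Adamts9, a protease that cleaves proteoglycans, was higher by 0.75 ± 0.15 in right lungs (adjusted p = 0.014), and its difference in left lungs was -1.13 (adjusted p = 0.00040). It was the 1 probe called in opposite directions on the 2 sides. Its right minus left change differed between the ages by 1.88 ± 0.22 (adjusted p = 0.0019). Timp3, an inhibitor of such proteases, was higher by 0.61 ± 0.10 (adjusted p = 0.0036). Calls were lost without pools 2 or 5 for Col18a1, 3 or 5 for Adamts9, and 1, 2 or 5 for Timp3. For Timp3 only the 1.5-fold threshold was missed, since its limma adjusted p was at most 0.027 in all 6 fits.

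Some Wnt pathway genes were among the lower ones, while called genes of the Notch and Hedgehog pathways went both ways. Fzd2, a Wnt receptor, was at 7.39, 7.22 and 7.55 in 9 month pools and 8.51, 8.26 and 8.34 in 3 month pools (-0.98 ± 0.12, adjusted p = 0.00056) and kept its call. The ligand Wnt5a fell by 0.68 (adjusted p = 0.010) and Dkk3, a secreted protein of the dickkopf family, by 0.64 (adjusted p = 0.016). Of 12 Wnt genes tested, 3 were lower, none was higher and the median was -0.17. Among 13 Notch and Hedgehog genes, Hhip (-0.92, adjusted p = 0.010), a decoy receptor of hedgehog ligands, and Hey1 were lower, and the Notch ligand Dll1 was higher (0.84, adjusted p = 0.021). Wnt5a, Hhip and Hey1 lost their calls without pool 5, Dkk3 without pools 2 or 5, and Dll1 without pools 1, 2, 3 or 5.

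Macrophage and interferon genes were set apart by few members. Arg1, the arginase of alternatively activated macrophages, was at 10.47, 9.67 and 10.86 in 9 month pools and 12.29, 11.54 and 13.22 in 3 month pools, 4.04-fold lower (-2.01 ± 0.45, adjusted p = 0.021). It was the sole called gene of 7 on its list, whose median was -0.20, and its call was lost without pools 1, 3 or 5. Of 19 interferon-stimulated genes tested 2 were higher, the antiviral genes Mx2 (1.45 ± 0.36, adjusted p = 0.032) and Oas2 (1.33 ± 0.27, adjusted p = 0.014). Mx2 was at 7.62, 7.27 and 8.98 in 9 month pools and 6.20, 6.46 and 6.86 in 3 month pools, so that pool 6 stood above the rest. All 19 lay above 0, with a median of 0.45 that was 0.15 without pool 6. Neither gene was called without pools 1, 2 or 6. Irf7, a regulator of interferon genes, differed by 1.16 (adjusted p = 0.11). Cxcl9, an interferon gamma-induced chemokine of T cells, was at 8.47, 6.75 and 8.03 in 9 month pools and 5.71, 6.17 and 6.57 in 3 month pools (1.60 ± 0.39, adjusted p = 0.031), and lost its call without pools 1, 2, 4 or 6. The protease inhibitors Serpina3f and Serpina3g were higher by 1.56 ± 0.29 and 1.12 ± 0.14 (adjusted p of 0.0086 and 0.00056) and kept their calls. Cd177, a neutrophil surface protein, was at 9.29, 9.46 and 9.55 in 9 month pools and 8.21, 8.32 and 8.05 in 3 month pools (1.24 ± 0.15, adjusted p = 0.00056), and H2-M2, a class I histocompatibility gene, was 2.71-fold higher (adjusted p = 0.013) but lost its call without pool 1. None of 9 neutrophil markers was called in right lungs, with a median of -0.39, while in left lungs 5 of the 9 were higher and the median was 0.95.

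Some of the lower genes were called in left lungs as well. Ddc, the decarboxylase that makes dopamine and serotonin, was at 7.07, 5.89 and 6.62 in 9 month pools and 7.89, 8.11 and 7.78 in 3 month pools (-1.40 ± 0.22, adjusted p = 0.0036), and differed by -1.54 in left lungs (adjusted p = 3.5e-05). The paternally expressed imprinted genes Peg3 and Ndn differed by -1.31 ± 0.19 and -0.84 ± 0.14 in right lungs (adjusted p of 0.0017 and 0.0052) and by -0.89 and -1.15 in left lungs (adjusted p of 0.023 and 3.5e-05). Mboat2, a phospholipid acyltransferase, and Igsf10 differed by -1.34 and -1.29 in right lungs (adjusted p of 0.0072 and 0.0078) and by -1.24 and -1.11 in left lungs. The other probe of Igsf10 did not share its direction and was not called. Podxl2, a sialomucin, differed by -1.20 in right lungs (adjusted p = 0.0018) and -0.72 in left lungs (adjusted p = 0.033). The neural adhesion genes Pcdha6 and Pcdha7, which share their constant exons, differed by -1.30 and -1.22 in right lungs (adjusted p of 0.010 and 0.0040) and were not called in left lungs (-0.59 and -0.34, adjusted p of 0.076 and 0.24). Ddc, Peg3, Ndn, Mboat2, Igsf10, Podxl2 and Pcdha7 kept their calls, and Pcdha6 lost its call without pools 2 or 5.

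Some skeletal muscle genes were also among the lower ones. Tmod4, the tropomodulin of skeletal muscle, was at 6.67, 6.53 and 6.73 in 9 month pools and 8.14, 8.34 and 7.54 in 3 month pools (-1.36 ± 0.32, adjusted p = 0.025), and Pygm, the muscle glycogen phosphorylase, was at 7.43, 6.91 and 6.76 in 9 month pools and 8.18, 8.79 and 7.86 in 3 month pools (-1.25 ± 0.34, adjusted p = 0.049). Shisa2, named here only as 1 of the largest drops, differed by -1.25 (adjusted p = 0.037). This probe of Tmod4 lost its call without pools 1, 2, 5 or 6, while its other probe (-1.40) kept its call. The calls were lost for Pygm and Shisa2 without any pool but pool 4. Of 11 skeletal muscle markers 5 were tested, none was called, all 5 lay below 0 and the median was -1.64, for example -1.75 for the muscle creatine kinase Ckm (adjusted p = 0.30). Their summed level was 11210 to 19620 in 9 month pools and 32280 to 51930 in 3 month pools, without overlap, and the part of muscle tissue in the lower genes was not tested. Cardiac muscle markers did not share this direction, since 7 of the 8 tested lay above 0, with a median of 0.24. Fat cell markers overlapped between the ages, with summed levels of 7704 to 13050 in 9 month pools and 7420 to 17640 in 3 month pools. Mesothelial markers summed to 13230 to 16620 in 9 month pools and 11800 to 12760 in 3 month pools.

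**Figure D3:**
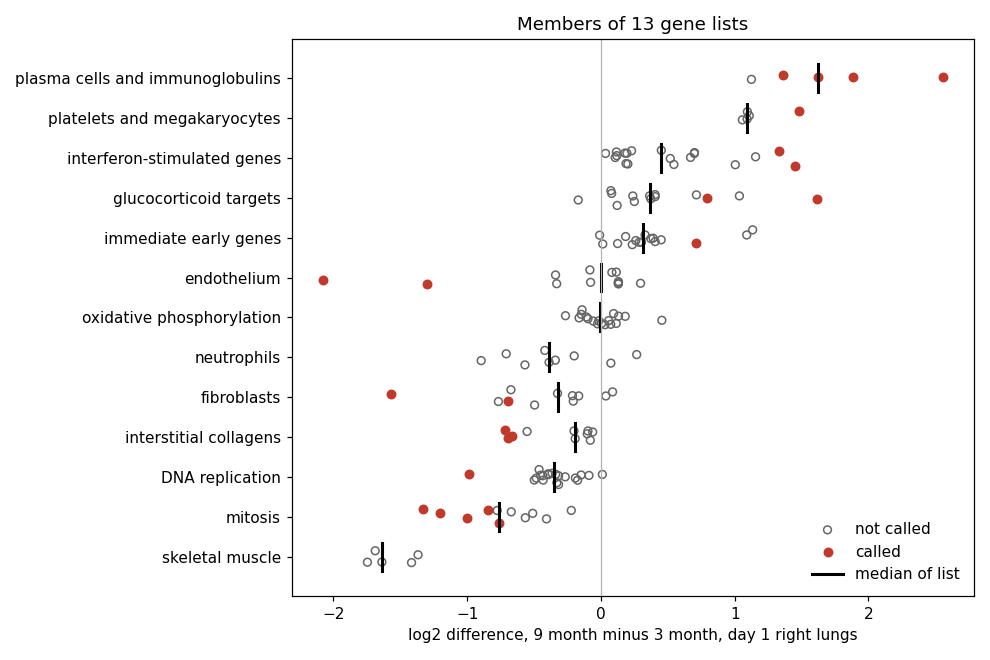
Differences of the tested members of 13 gene lists (9 month minus 3 month, log2), with called genes filled, other genes open and a black bar at each median. The medians run from 1.63 for plasma cells and immunoglobulins to -1.64 for skeletal muscle, whose 5 members are all open.

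The left lungs of the same pools gave the age difference at the time of the operation. In left lungs 267 probes were called between the ages (1.69% of those tested). Of the probes that were higher in 9 month right lungs, 42 were also higher in left lungs, which is 42 of 267 on the right and of 151 on the left, and of those lower 27 were lower on both sides, of 213 on the right and 116 on the left. Igh-6, Igk-C, Gp5, Alox12 and Ddc were among these. Of the 267 higher probes, 164 had a left difference above 0, and of the 213 lower ones 170 had a left difference below 0. The age difference in the right minus left change itself was called for 63 probes (0.399%), of which 29 were also called higher in right lungs and 11 lower. Among the higher ones were Plat, Adamts9, Sema7a, Plxna2, Tmem82 (1.33 ± 0.16 in right lungs, 1.496 in the right minus left change, adjusted p = 0.023), Pvr, Cdkn1a, Spry4 and Ptprg, a receptor tyrosine phosphatase (1.04 in right lungs, 1.33 in the change, adjusted p = 0.046). Among the lower ones were Ednrb, the fatty acid binding protein Fabp5 (-0.93 in right lungs, -0.95 in the change, adjusted p = 0.029), the tubulin-binding protein Tppp (-0.84 and -1.13, adjusted p = 0.024), Elfn1 (-0.82 and -1.01, adjusted p = 0.029) and Tmem86a (-0.73 and -0.83, adjusted p = 0.047). This count was sensitive to single pools, with 27 probes without pool 1, 4 without pool 2, 3 without pool 3, 88 without pool 4, 4 without pool 5 and 31 without pool 6. The right lung call of Tmem82 was kept. Those of Ptprg (pools 1, 2, 4, 5 or 6), Fabp5 (1, 2, 3, 5 or 6) and Tppp (1, 3, 5 or 6) were lost without the pools given. So were those of Elfn1 (2, 3 or 5) and Tmem86a (2 or 5). The other probe of Ptprg was not called in right lungs.

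**Figure D4:**
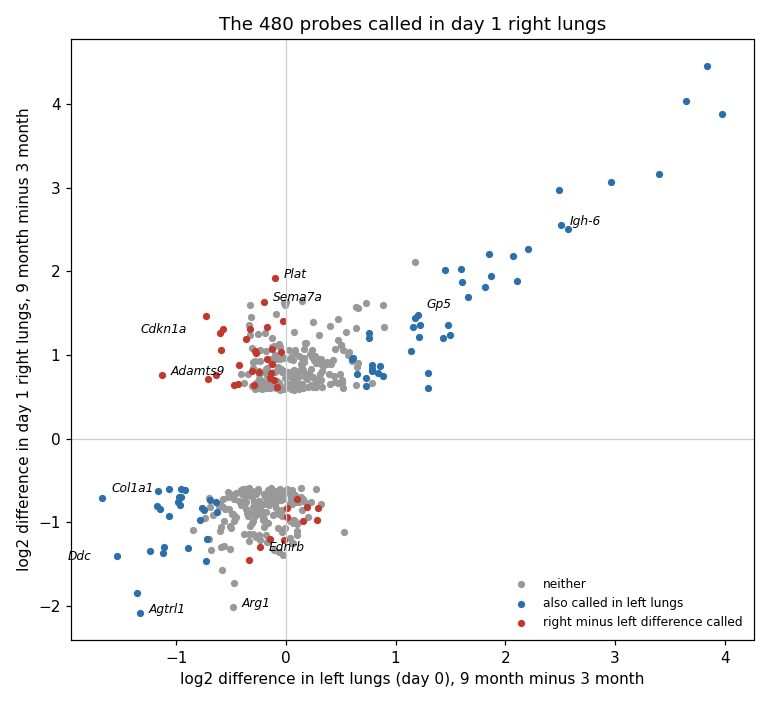
Each of the 480 probes called in day 1 right lungs, with its 9 month minus 3 month difference in left lungs on the horizontal axis and in right lungs on the vertical axis (both log2). Igh-6 lies at 2.51 and 2.55, whereas Plat lies near 0 on the left lung axis at -0.10 and at 1.92 on the right lung axis.

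Right lungs of other pools gave the age difference on later days. These pools share no mice with the day 1 pools. On day 3, 246 probes were called in all (117 higher and 129 lower), and on day 7, 28 (24 higher and 4 lower). Of the day 1 calls, 51 higher and 47 lower probes were called again in the same direction on day 3. On day 7 these counts were 18 and 4. Of the 267 higher probes, 223 lay above 0 on day 3 and 195 on day 7. Of the 213 lower ones, 170 and 190 lay below 0. Plat differed by 1.92, 0.88 and 0.04 on days 1, 3 and 7, Sema7a by 1.63, 1.02 and 0.13, and Cdkn1a by 1.31, 0.71 and 0.08. Plxna2 was at 0.11 on day 3 and -0.05 on day 7. Cdc2a, Top2a and Birc5, which were lower on day 1, were at 0.21, 0.25 and 0.43 on day 3. Serpina3g and Cd177 were higher on all 3 days, by 1.37 and 1.74 on day 3 and 0.92 and 1.05 on day 7 (adjusted p of 0.012 and 0.011 on day 7). A test of day 1 against the mean of days 3 and 7 called 0 probes by limma, with 1622 probes at an unadjusted p under 0.05. It called 5 probes on the authors' own log2 values, 10 without pool 4 and 1 without pool 3. With all pools and the normalization used here, no gene is shown to differ more on day 1 than later. The smallest adjusted p among the genes named here was 0.071, for Plxna2 (difference of 1.38).

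**Figure D5:**
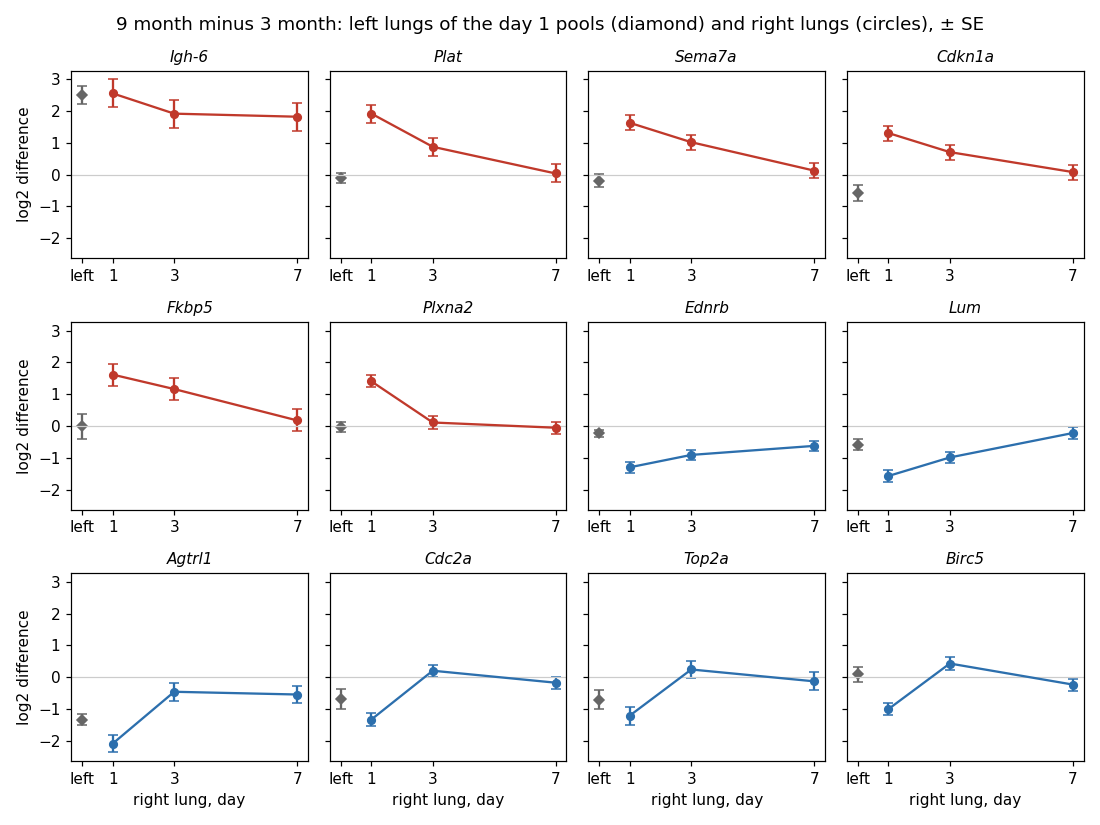
Age difference (9 month minus 3 month, log2, ± SE) of 12 genes in left lungs of the day 1 pools (grey diamonds) and in right lungs on days 1, 3 and 7 (circles). Plat goes through 1.92, 0.88 and 0.04 over the 3 days, while Igh-6 stays at 1.82 or above.

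A further set of probes was detected on all arrays of 1 age and on none of the other. When a probe needed detection on the 3 arrays of at least 1 age only, 19829 probes were tested and 597 were called. Of those called, 19 were detected in 9 month lungs alone and 20 in 3 month lungs alone, and 9 and 17 of these carry usual gene names. Such probes passed the filter only through the age that detected them, which set their direction beforehand. They are listed as a description and are no test of a difference. Folds are bounds, set against the lowest detected signal of each array. Higher in 9 month lungs were Acr (at least 2.04-fold), F2rl2, a thrombin receptor of mouse platelets (at least 2.00-fold), Akr1c14 (at least 1.51-fold) and Pbx4 (at least 1.51-fold). Higher in 3 month lungs were Cacng1, a calcium channel subunit of skeletal muscle (at least 3.01-fold), the linker histone H1fx (at least 1.84-fold), Wbscr17 (at least 1.63-fold), Maz (at least 1.58-fold) and Cenpm, a centromere protein (at least 1.54-fold).

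The genes that the study's text discusses were chosen on these samples and are no independent evidence. Of the 16, all tested, 2 were higher (Cdkn1a and Adamts9) and 3 lower (Birc5, Col1a1 and Mdk), and the median was -0.14. Tnfrsf12a, the TWEAK receptor, was at 11.88, 13.02 and 12.25 in 9 month pools and 11.35, 10.58 and 11.01 in 3 month pools, a difference of 1.40 ± 0.39 that just missed the threshold (adjusted p = 0.054). Il1b, Col3a1 and Tnc differed by -0.71, -0.55 and 0.56, with adjusted p of 0.26, 0.18 and 0.52. For the response to PNX the study compared changes against the left lung of each pool, whereas these values are right lung levels. In left lungs the median of the 16 genes was -0.82, with 8 called lower and 1 higher. Lists of basic cell functions were near 0: the median was -0.006 for 18 oxidative phosphorylation genes, -0.03 for 13 large ribosomal proteins and -0.03 for 15 hypoxia and glycolysis genes, with no call in any of them.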

How the data were processed

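RNA pools were hybridised to Illumina MouseWG-6 v2 BeadChips. The deposited bead intensity values are background-subtracted signals with detection p-values, bead counts and standard errors over beads (a median of 43 beads per probe). The authors also deposited normalized log2 values (RMA background and quantile normalization in lumi, versions not given in the sources used here), which were used as an alternative. Intensities were corrected by normexp with detection p-values and an offset of 16, quantile-normalized and log2-transformed (neqc, limma 3.58.1, R 4.3.3). A probe was kept where each of the 36 arrays detected it (detection p under 0.05). One limma fit held the 18 right lung arrays with 6 group means, another the 18 left lung arrays, and another the right minus left log2 value of each of the 18 pools. Benjamini-Hochberg adjustment ran over all 15795 probes, and the fit was tested on simulated data. A gene is represented by its probe with the highest mean over the 36 arrays. Alternatives were other background, normalization, detection and fold settings, other sets of arrays in the fit, array weights, a replicate block and leaving out each pool.

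Of 30789 symbols on the array, 21918 matched a RefSeq name or synonym (GRCm38.p6), and file symbols are printed with the current name where it differs. Named genes are up to 15 of the largest calls without overlap in each direction (predicted, clone and RIKEN names skipped), up to 4 members of each described list with the smallest p, the genes of the study's text, up to 8 in each direction also called for the right minus left change, and up to 5 in each direction detected in 1 age only. Alox12, Angpt2, Ankrd1, Cd177, Cd93, Gp9, Lyve1, Mcam, Mki67, Serpina3g and the histone genes fall outside this rule and were chosen after their values were seen. The members and lists were chosen with earlier results of these data known. Some items are not reported here.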

Additional observations from a re-analysis of the deposited data

Results flagged for a closer look

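For 17 of the genes named above, the age difference in day 1 right lungs differed from that in the left lungs of the same pools, by limma's test of the right minus left change with Benjamini-Hochberg adjustment. The difference of the change (9 month minus 3 month, log2) was 2.02 for Plat, 1.89 for Cdkn1a, 1.88 for Adamts9, 1.83 for Sema7a, 1.64 for Pvr, 1.56 for Spry4, 1.496 for Tmem82, 1.43 for Plxna2, 1.33 for Ptprg, 1.31 for Col18a1, 1.12 for Mcam and 1.02 for Cd93. It was -0.83 for Tmem86a, -0.95 for Fabp5, -1.01 for Elfn1, -1.06 for Ednrb and -1.13 for Tppp. Their adjusted p ran from 0.0019 for Adamts9 to 0.047 for Tmem86a. Most of these calls were lost in some fits with a pool left out. In all, 63 probes were called with every pool, against 4 without pool 2, 3 without pool 3 and 4 without pool 5. Right and left lungs were on separate chips, so side and chip cannot be told apart in the levels. Each chip held both ages, but always with 3 month pools at positions A, B and C and 9 month pools at D, E and F. Age and position therefore cannot be told apart on either side.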

How the results depend on the processing

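Of the 480 calls, none took the opposite direction under any alternative. The count was 733 without the day 3 arrays and 735 with all 36 arrays in 1 fit. It was 331 on the authors' log2 values, and 415 with the 6 day 1 right lung arrays alone (189 higher and 226 lower). Leaving out single pools gave 124 to 607. In left lungs the count was 157 on the authors' log2 values and 184 to 273 with a pool left out. For the right minus left change it was 147 on the authors' log2 values, 108 with detection p under 0.01, and 3 to 88 with a pool left out. For day 1 against later days it was 5 on the authors' log2 values and 0 to 10 with a pool left out. The cause was not tested. With the replicate block the count was 409, of which 393 were among the 480; same-numbered pools of the 2 ages correlated at -0.11, -0.03 and 0.02 in their deviations, so the numbers do not pair them. Of 89 called genes named in the text, 31 kept their calls without each pool and none reversed. Only 3 pools per age, and probes near background, limit what could be called.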

Other observations

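A few called genes stood alone on their lists. Lat, an adaptor of T cell receptor signalling, was at 7.49, 7.57 and 7.60 in 9 month pools and 6.28, 6.70 and 6.33 in 3 month pools (1.12 ± 0.18, adjusted p = 0.0037), the 1 call among 7 T cell genes, whose median was 0.16. Fmo1, a flavin monooxygenase, was at 12.84, 12.57 and 12.63 in 9 month pools and 13.51, 13.83 and 13.49 in 3 month pools (-0.93 ± 0.17, adjusted p = 0.0079), the 1 call among 17 xenobiotic metabolism genes, whose median was 0.01. Both were called whichever pool was left out, although the other probe of Fmo1 was not called.

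Actc1, the cardiac actin, was higher by 1.07 ± 0.20 (adjusted p = 0.010), the 1 call among 8 cardiac muscle genes (median 0.24), and was not called without pool 5. Cxcr4, the receptor of the chemokine Cxcl12, differed by -0.84 (adjusted p = 0.038) and Plaur, the urokinase receptor, by 0.95 (adjusted p = 0.040). The keratin Krt19 differed by 0.95 (adjusted p = 0.036). Each of these 3 kept its call without pool 4 and lost it without any other pool. Ly6c1, a surface antigen of monocytes and endothelial cells, differed by 0.66 (adjusted p = 0.035) and was not called when any pool was left out.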
